A study of Mus musculus with 8 samples.

Results

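Proliferating CD4 T cells of the mouse colonic lamina propria were studied, that is, T helper cells and regulatory T cells whose transcriptomes hold messages of DNA replication and cell division. A cell was taken as proliferating when it stood on the cell list deposited with the data, held at least 2 unique molecular identifiers (UMIs, tags that each count 1 captured transcript) of the T cell receptor genes Cd3e, Cd3d, Cd3g, Trac and Trbc2 together, held no more than 1 UMI each of Cd79a (B cells), Col3a1 (fibroblasts) and C1qa (macrophages), and held at least 3 UMIs of Mki67, Top2a, Birc5, Pclaf and Ube2c together. The cells were thus chosen by measured UMI counts of these genes, which took 1945 of 27420 listed cells. By the T cell part of the rule alone, 19833 cells were CD4 T cells, so 17888 other CD4 T cells remained for comparison.

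The cells came from 8 libraries in 4 groups of 2, described by the study as independent biological replicates. All mice were C57BL/6, 10 to 12 weeks old and kept free of specific pathogens. They were wildtype or of a mutant line that the sample titles name S203AKI. Untreated mice drank water for 10 days. Treated mice drank 2% dextran sulfate sodium (DSS), a polymer that injures the colonic epithelium and brings on colitis, for 7 days and then water for 3 days, so all colons were taken on day 10. From every mouse, lamina propria cells were enriched for CD4 with magnetic beads before droplet capture, so shares of cells are those of the enriched suspension. Per-library values below follow one order: untreated wildtype replicates 1 and 2, untreated mutant replicates 1 and 2, then the DSS-treated wildtype and mutant replicates likewise.

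A T cell that divides passes from G1, held back by RB family proteins and CDK inhibitors, into S phase, in which E2F factors have switched on the genes of DNA replication, and then through G2 into mitosis, for which MuvB complexes with B-MYB and FOXM1 switch on the genes of the spindle, kinetochore and cytokinesis. Mki67 encodes the coat protein of mitotic chromosomes, Top2a the topoisomerase that untangles sister DNAs, Birc5 the survivin subunit of the chromosomal passenger complex, Pclaf a partner of the replication clamp PCNA, and Ube2c a ubiquitin-conjugating enzyme of the anaphase-promoting complex. In the colon, helper T cells of types 1 and 17 and regulatory T cells, which carry the factor Foxp3 and restrain inflammation, can all divide in place.

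Promoters of 3 of the genes that chose the cells are shown because mitotic genes are known for shared short elements there, the CHR (cell cycle genes homology region) and CCAAT boxes. The RefSeq table used has build GRCm38.p6, the assembly also called mm10, which the submitters' processing notes name. Each line holds the 200 bases before the annotated start, 5′ to 3′ on the gene's strand, with CCAAT and the CHR-type letters TTTGAA and TTCGAA in capitals on either strand. The windows lie at chr7:135716380-135716579 (minus strand) for Mki67, chr11:99024190-99024389 (minus strand) for Top2a and chr11:117849037-117849236 (plus strand) for Birc5.
Mki67: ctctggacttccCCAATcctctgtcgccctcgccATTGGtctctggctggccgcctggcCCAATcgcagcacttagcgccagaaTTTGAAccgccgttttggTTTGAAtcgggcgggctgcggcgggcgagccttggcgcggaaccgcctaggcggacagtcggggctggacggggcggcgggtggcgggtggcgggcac
Top2a: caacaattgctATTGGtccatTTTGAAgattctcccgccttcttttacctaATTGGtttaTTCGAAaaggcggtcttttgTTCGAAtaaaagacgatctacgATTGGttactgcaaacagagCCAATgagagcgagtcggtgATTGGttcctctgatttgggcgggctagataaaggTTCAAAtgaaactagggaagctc
Birc5: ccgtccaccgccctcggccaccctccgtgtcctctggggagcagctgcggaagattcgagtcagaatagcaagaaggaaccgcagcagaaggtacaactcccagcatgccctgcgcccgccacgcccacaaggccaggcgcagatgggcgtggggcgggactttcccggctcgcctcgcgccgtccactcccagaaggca

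Mki67 held CHR-type letters that begin 116 and 98 bases before the start and CCAAT boxes at 188, 166 and 141 bases. Top2a held CHR-type letters at 179, 140, 120 and 23 bases and CCAAT boxes at 189, 149, 98, 78 and 58 bases, while these letters were not in the Birc5 window. Over windows of 250 bases before to 50 after the start, CHR-type letters were in 41 of 54 mitosis-list genes with a promoter in the table (75.9%), in 8 of 39 DNA replication genes (20.5%) and in 21.7% of all 27025 genes of the table. A gene counted where any of its promoters held the letters. CCAAT was in 40 of the 54 mitosis genes (74.1%), in 24 of the 39 replication genes (61.5%) and in 41.1% of all genes, and both motifs in 34 mitosis genes (63.0%) against 8.61% of all. E2F-type letters (TTTGGCGC, TTTCGCGC or TTTGGCGG, both strands) were in 4 mitosis genes (7.41%), in 14 replication genes (35.9%) and in 1.53% of all genes. The mitosis genes thus held CHR, CCAAT and E2F letters more often than genes at large, though E2F letters in only 4 genes. The replication genes held E2F and CCAAT letters more often, with CHR-type letters near the share of all genes. These are counts of letters and not of bound factors.

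The libraries held 34497509 to 46960005 UMIs over all barcodes, and the proliferating cells together gave 850127 (second untreated mutant library) to 4269695 UMIs (second mutant library after DSS). No barcode of the cell list was shared by any of the 28 pairs of libraries. Several libraries stood apart. The 12 heat-shock genes summed to 19535 and 21422 CPM (UMIs of a gene scaled to a common library total) in the proliferating cells of untreated mutant replicates 1 and 2. These genes summed to 9965 and 14097 in the untreated wildtype and 8519 to 10929 after DSS. The wildtype DSS contrast has neither of these mutant libraries on its sides, but both still enter the fit that gives its spread and gene filter. Transcripts of squamous and columnar epithelium (7 genes, among them Krt5 and Krt14) summed to 6.65 to 18.2 CPM untreated and 173 to 713 after DSS, with 0 to 2 against 2 to 4 cells per library above 2 UMIs of these genes. Plasma cell transcripts came to 604 to 7052 CPM (highest in untreated mutant replicate 1), and neutrophil transcripts reached 289 CPM in DSS-treated mutant replicate 2, where 3 cells held more than 4 such UMIs, against 0 to 5.49 elsewhere. B cell transcripts, mostly Cd74, were 1252 to 1867 CPM untreated and 283 to 983 after DSS, with 12 to 27 cells per library (163 in all) above 4 such UMIs. Myeloid transcripts (10 genes) were 133 to 213 CPM untreated and 53.9 to 177 after DSS, with 6 to 14 cells per library (77 in all) above 4 such UMIs. The part of such cells in each result was tested only by leaving out cells with many UMIs of another lineage or few T cell receptor UMIs. In DSS-treated wildtype replicate 2 this kept 1260 of 2351 other CD4 T cells, against 180 of 213 proliferating cells. In untreated mutant replicate 1 it kept 1271 of 1638, against 139 of 162. Plasma cell transcripts in the unfiltered other CD4 T cells were 1363 to 7493 CPM and myeloid ones 119 to 336. B cell transcripts were lower there than in the proliferating cells of every library, at 571 to 893 CPM untreated and 272 to 634 after DSS. Epithelial transcripts after DSS were lower there, at 14.5 to 69.8 CPM. Comparisons with other CD4 T cells used them unfiltered unless stated.

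Of genes outside the rule, Cd4 had a UMI in all 1945 cells, but also in all 27420 cells of the deposited list, so it is a property of that list and no check of the label. A UMI of Cd8a or Cd8b1, genes of the other main T cell lineage, was in 52 of the 1945 cells. The 5 T cell receptor genes, which the rule used, had a median sum of 14 to 20 UMIs per cell by library. The proliferating cells were large in RNA, with a median of 5321 to 8752 UMIs and 1964.5 to 2672 genes per cell by library, against 2045 to 2908 UMIs and 995 to 1267 genes in the other CD4 T cells. The mitochondrial share of their UMIs was 3.30%, 3.03%, 3.55% and 3.08% untreated and 3.73%, 3.57%, 3.73% and 4.01% after DSS, higher in every DSS library. Its part in the DSS results was not tested. The median cell held 11 UMIs of the 5 cycle genes that chose it, and the highest 105. Cells just inside the limit, with 3 UMIs, numbered 267 and held 10.8 UMIs of the replication lists and 17.3 of the mitosis list per cell. Those just outside, with 2 UMIs, numbered 677 and held 7.19 and 11.7, and cells with none held 3.1 and 6.37. Median UMIs per cell were 5271 at 3 UMIs, 3930 at 2 and 2221 at 0, so depth moved along the same scale as the cycle genes.

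Within the population the cell cycle genes were not uniform. Top2a was detected in 88.4% of the cells, Mki67 in 86.1%, Pclaf in 70.7%, Birc5 in 58.5% and Ube2c in 53.6%. The summed UMIs of 63 mitosis genes exceeded those of 50 replication genes in 1609 cells, the reverse held in 307, and 29 were even. The mitosis list is longer and its genes more abundant, so these numbers order cells and are not fractions in phase. The 5 genes chose the cells and so describe this split without supporting it. Ube2c, which acts at anaphase, was detected in 60.9% of the cells leaning to G2/M and 19.2% of those leaning to S, and Birc5 in 62.4% and 41.4%, whereas Pclaf, the replication clamp partner, was detected in 68.4% and 84.0%. Mki67 (87.3% and 82.1%) and Top2a (88.9% and 86.3%) were close to even.

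Set against the other CD4 T cells of the same library, a contrast the rule itself made and which is therefore described without a test, the proliferating cells carried more of nearly every replication and division gene. Levels are CPM of the summed cells. Of the genes with 10 CPM or more in either class, all 31 genes of DNA synthesis, 15 of 16 licensing genes and 58 of 59 mitosis genes were higher in all 8 libraries, with median log2 ratios of 2.25, 2.22 and 3.39. Among genes outside the cell cycle, histone, chromatin and tubulin lists the highest ratios belonged to Hist1h2ab, a replication-dependent histone (5.31, 47.4 to 169 CPM against 0.340 to 2.63), and to the kinetochore scaffold Knl1 (4.45, 40.0 to 63.0 CPM against 0.539 to 2.38). Among the 15 genes ranked highest, all at 50 CPM or more in either class, were also the cytokinesis kinase Cit (4.27), the spindle pole gene Aspm (4.07), the formin Diaph3 (3.07) and the passenger complex scaffold Incenp (2.56). All 22 histone, chromatin and tubulin genes measured at this level were higher in 8 libraries (median 2.21).

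Metabolic genes were raised by less. All 17 nuclear genes of oxidative phosphorylation (median 0.68), 9 of 14 glycolysis genes (0.48) and 9 of 13 ribosome biogenesis genes (0.60) were higher in 8 libraries. Genes of quiescence and egress from tissue went the other way: 9 of 11 were lower in 8 libraries (median -0.70), among them Il7r, the receptor for the survival cytokine IL-7 (-1.06, 106 to 188 CPM against 186 to 449). Over all 7478 genes at 10 CPM, 23.8% were higher and 21.3% lower in 8 libraries. Of genes of helper function, 5 of 12 type 17 genes (median -0.49), 4 of 12 type 1 genes (-0.47), 5 of 8 follicular genes (-0.51) and 9 of 15 regulatory genes (-0.24) were lower in 8 libraries and 0, 0, 0 and 1 higher. Il22, the cytokine that acts on the epithelium, was -1.07 (21.1 to 193 CPM against 51.8 to 469). Over the 3195 genes with 50 CPM or more, 969 were higher and 1012 lower in 8 libraries, 172 and 15 of them by at least 2-fold, and the median ratio was -0.054.

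**Figure D1:**
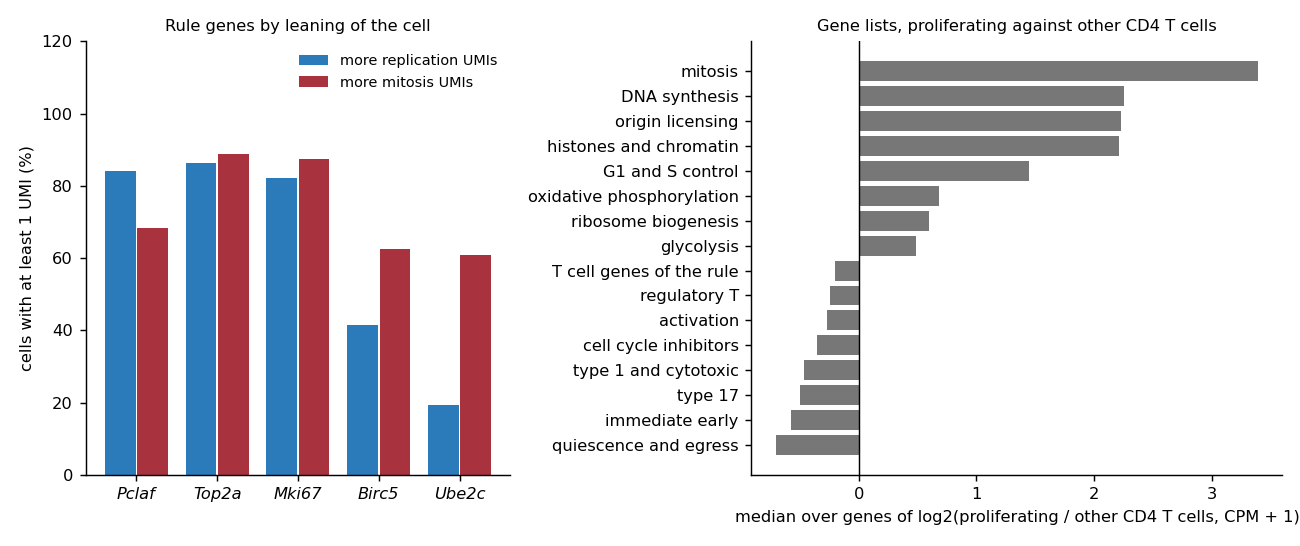
Left, bars give the percentage of proliferating cells with at least 1 UMI of each rule gene, for cells with more S than G2/M transcripts and the reverse, pooled over 8 libraries. Right, bars give the median over genes of the log2 ratio of CPM + 1, proliferating to other CD4 T cells, for each gene list. Ube2c differs most between leanings (19.2% and 60.9%), and the mitosis list has the highest median of the lists outside the rule.

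The share of CD4 T cells that proliferated did not separate the treatments. It was 11.8%, 10.9%, 9.0% and 5.49% in the untreated libraries and 11.0%, 8.31%, 8.85% and 11.8% after DSS. The ranges overlapped, and untreated mutant replicate 2 was lowest. Means were 10.0% ± 1.68 (SD, n = 4) after DSS and 9.30% ± 2.79 (SD, n = 4) untreated, a difference of 0.700 percentage points (two-sided exact permutation test, p = 0.771, adjusted over 18 such tests p = 1), with -1.68 points in wildtype and 3.08 in mutant mice. Without untreated mutant replicate 2 the difference was -0.567. A test of 4 libraries against 4 cannot give a p below 0.0286, and 2 against 2 were not tested.

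Because deeper cells reach 3 UMIs more easily, every CD4 T cell was also thinned at random to 1000 UMIs, which left out 10 to 81 shallower cells per library and no proliferating one. At 3 UMIs the thinned shares were 4.42%, 4.13%, 2.92% and 2.06% untreated and 3.5%, 3.51%, 3.45% and 3.09% after DSS. The 4 mutant libraries were then below the 4 wildtype libraries, though after DSS by little (3.45% against 3.5% for the closest pair). The mean difference was -1.01 points (exact permutation p = 0.0286 unadjusted, the smallest possible) and -1.22 points at 2 thinned UMIs (p = 0.0286). Unthinned, the mutant libraries had 8.79% ± 2.58 (SD, n = 4) and the wildtype 10.5% ± 1.51 (SD, n = 4), a difference of -1.71 points (exact permutation p = 0.371, adjusted p = 0.743) that was -4.10 in untreated and 0.669 in DSS-treated mice. The thinned tests were alternatives outside the 18 adjusted tests, in which the same unadjusted p elsewhere became 0.171.

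**Figure D2:**
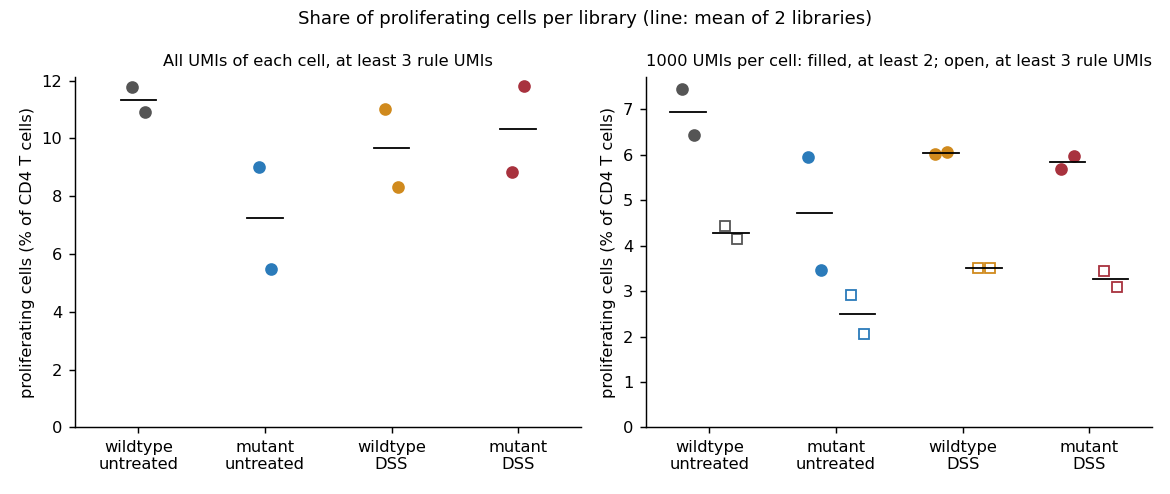
The y axes give proliferating cells as a percentage of CD4 T cells, with 1 point per library and a line at the mean of 2 libraries in each of the 4 groups. Left, all UMIs of each cell. Right, cells thinned to 1000 UMIs with at least 2 (filled) or 3 (open) rule UMIs. Unthinned shares run from 5.49% to 11.8% and overlap between treatments. Thinned shares, from 1 random draw, are lower in the mutant libraries, after DSS by little.

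Cells leaning to S made up 16.4%, 12.2%, 14.8% and 13.6% of the proliferating cells untreated and 17.8%, 16.4%, 17.7% and 15.5% after DSS. The 2 treatments overlapped, in that untreated wildtype replicate 1 lay above DSS-treated mutant replicate 2. Means were 16.8% ± 1.10 against 14.2% ± 1.80 (SD, n = 4 each), a difference of 2.60 points (exact permutation p = 0.0571, adjusted p = 0.206), and 1.5 points after thinning (p = 0.257).

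DSS changed the transcriptome of the proliferating cells broadly. UMIs were summed over the proliferating cells of each library, so that a summed level cannot tell more cells with a transcript from more transcripts per cell, and groups were compared with edgeR's quasi-likelihood test with Benjamini-Hochberg adjustment over 8881 genes. Averaged over both genotypes, 4 DSS libraries against 4 untreated, 1181 genes (13.3%) passed an adjusted p of 0.05, of which 525 (5.91%) were higher and 656 (7.39%) lower after DSS. In 1698 of the 8881 genes (19.1%) the 4 DSS libraries did not overlap the 4 untreated ones, and 952 of these were called. Such a gap was a condition for the genes named by size, so for them it adds no evidence. In wildtype mice alone 337 genes passed (3.79%, 117 higher and 220 lower) and in mutant mice 240 (2.7%, 92 and 148). The wildtype and mutant contrasts share no library, but they come from 1 fit of all 8 libraries with a shared estimate of spread and are not independent. In that fit 102 genes passed in both, 30.3% of the wildtype and 42.5% of the mutant genes. The same sign in the other genotype was seen in 320 of the 337 and 233 of the 240, and its share over all genes was not counted. Fitted on only the 4 libraries compared, 454 genes passed in wildtype and 177 in mutant mice. Without the Foxp3-positive cells 21 genes passed in wildtype and 91 in mutant mice. With 1 library left out, the wildtype count was 85 or 45 without the first or second untreated wildtype library, 213 or 194 (untreated mutant), 88 or 68 (wildtype after DSS) and 516 or 523 (mutant after DSS). The mutant count was 168 or 181, 51 or 23, 222 or 211 and 515 or 101 in the same order, and the overlap rests on counts that moved this much. For the averaged contrast DESeq2 called 505 genes, of which 504 were among the 1181. With 1 library left out the count was 759 or 550 (first or second untreated wildtype library), 644 or 507 (untreated mutant), 934 or 586 (wildtype after DSS) and 1394 or 770 (mutant after DSS).

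In all 15 alternative settings, 185 of the 1181 genes were called, 44 of them higher. They include Tnfrsf9, Ccng2, Sdhd, Laptm4b, Myo10 and Lgmn among the genes that rose, and Cdkn1a, Gadd45b, Gadd45g, Klf2, Ifng, Ccl5, Atf3, Cxcl10 and Nop56 among those that fell. Without the cells in which a Foxp3 UMI was seen, 343 genes were called (124 higher), 330 of them among the 1181, in a fit that also has fewer cells. The account starts with those.

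Foxp3, the factor that defines regulatory T cells, stood at 44.7, 36.5, 31.9 and 22.4 CPM untreated and 120.5, 144, 104 and 137 CPM after DSS. Every DSS library was above every untreated one (log2 fold change 1.88, SE 0.152, adjusted p = 1.4e-05), and the same was seen in wildtype (1.66, adjusted p = 0.00134) and mutant mice (2.10, adjusted p = 0.000379). Il2ra, the high-affinity IL-2 receptor chain by which regulatory T cells take up IL-2, stood at 126, 114, 100.2 and 87.1 CPM untreated and 227, 249.97, 169 and 205 CPM after DSS (log2 fold change 0.96, SE 0.110, adjusted p = 0.000185). Ctla4, the inhibitory receptor, rose by less (561, 577, 527 and 698 CPM untreated and 779.5, 850.5, 853 and 795 CPM after DSS; log2 fold change 0.44, adjusted p = 0.0132) and was not called without untreated wildtype replicate 1 or 2, the first untreated mutant or the second DSS-treated wildtype library. Il10, the anti-inflammatory cytokine, rose with a log2 fold change of 0.64, adjusted p = 0.00831, a call lost without untreated mutant replicate 1.

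Of 15 regulatory T cell genes tested, 7 rose and 0 fell (Foxp3, Ikzf2, Il2ra, Ctla4, Il10, Capg and Izumo1r), with a list median of 0.46 against 0.018 over all genes, of which 5.91% rose and 7.39% fell. The same list had 8 higher and 1 lower of 16 in the other CD4 T cells, where 2064 of all 11094 genes passed (18.6%, with 9.46% higher and 9.14% lower). The count fell to 3 without untreated wildtype replicate 1, 2 without the first untreated mutant library and 3 without the second DSS-treated wildtype library. With the cells that held a Foxp3 UMI left out, none of 12 tested members was called, with Il2ra at 0.24, adjusted p = 0.307. Tnfrsf9, the costimulatory receptor 4-1BB that is high on activated regulatory T cells, stood at 115, 88.1, 87.3 and 68.2 CPM untreated and 269, 312, 246 and 288 CPM after DSS (log2 fold change 1.60, SE 0.124, adjusted p = 1.4e-05), with a clear gap between the treatments, and it was still called without those cells (1.14, adjusted p = 0.00208).

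Counted per cell at equal depth, Foxp3 was detected in 2.46%, 3.48%, 3.70% and 2.54% of the untreated proliferating cells and 10.2%, 13.1%, 8.62% and 14.3% after DSS, each cell thinned to 1000 UMIs. The DSS libraries did not overlap the untreated ones (11.6% ± 2.59 against 3.05% ± 0.637, SD, n = 4 each; difference 8.52 points; exact permutation p = 0.0286, adjusted p = 0.171), with 8.72 points in wildtype and 8.31 in mutant mice. Without thinning, 8.47% to 15.7% had a Foxp3 UMI untreated and 31.5% to 46.9% after DSS. In the other CD4 T cells the thinned share went from 3.12% to 4.59% up to 8.24% to 11.7%. Fibroblasts, which do not make Foxp3, had a median of 4024 to 7234 UMIs by library before the same thinning (proliferating cells 5321 to 8752). They showed 0% to 0.302% untreated and 0.154% to 0.605% after DSS. These barcodes lay outside the cell list and were taken with at least 10 UMIs of Col1a1, Col3a1 and Dcn together and no Cd4 UMI. Barcodes that caught Cd4 RNA were thus left out, so the share can understate the level that free RNA gives. Free RNA and doublets were not told apart.

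Turned round, the share of Foxp3-positive CD4 T cells that proliferated (at 2 of the thinned rule UMIs, a result added after the data were seen) was 3.66%, 5.38%, 1.56% and 1.52% untreated and 5.68%, 8.15%, 4.74% and 7.60% after DSS. The Foxp3-positive cells numbered only 82, 93, 64 and 66 untreated, against 317, 270, 211 and 421 after DSS. Each untreated share thus rests on a few proliferating cells. Untreated wildtype replicate 2 overlapped the DSS libraries (6.54% ± 1.60 against 3.03% ± 1.86, SD, n = 4 each; difference 3.51 points, exact permutation p = 0.0571, adjusted p = 0.206). CD4 T cells without a Foxp3 UMI proliferated at 5.85% ± 0.144 after DSS and 5.93% ± 1.72 untreated (difference -0.0822 points, exact permutation p = 0.943). The Foxp3-positive minus the Foxp3-negative share was -2.90 points untreated and 0.691 points after DSS, a shift of 3.6 points (exact permutation p = 0.0286, adjusted p = 0.171), 3.5 in wildtype and 3.69 in mutant mice. At 3 thinned UMIs the shift was 2.53 points (exact permutation p = 0.0857), and the Foxp3-positive share was 0% in both untreated mutant libraries. The same added comparison for Ifng, whose positive minus negative share was 1.77 points untreated and -0.953 after DSS, gave a shift of -2.72 points (exact permutation p = 0.114, adjusted p = 0.343), -5.39 in wildtype and -0.0631 in mutant mice.

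The Foxp3-positive proliferating cells were pooled by treatment for description, 107 untreated and 506 after DSS. From untreated to DSS their Il2ra level went from 163 to 318 CPM and Tnfrsf9 from 217 to 423, against 98.6 to 112 and 66.4 to 144 in the proliferating cells without a Foxp3 UMI. Ctla4 went from 736 to 938 CPM, and Ikzf2, which marks many thymus-derived regulatory cells, from 327 to 305. Tnfrsf4 went from 814 to 589 CPM, Tnfrsf18 from 343 to 315 and Il10 from 129 to 116. Klrg1 went from 26.9 to 12.0 CPM and Tigit from 25.9 to 17.2. Areg went from 222 to 546 CPM, Itgae from 38.3 to 42.6 and Il1rl1 from 31.1 to 34.1. By library the treatments overlapped for Ikzf2, Tnfrsf18, Il10, Klrg1, Tigit, Itgae and Il1rl1. They were apart for Il2ra, Tnfrsf9, Ctla4 and Areg, all higher after DSS, and for Tnfrsf4, which was lower (761 to 863 CPM untreated, 464 to 731 after DSS). Genes of regulatory cells thus moved in both directions, without a test. Ifng went from 147 to 24.9 CPM in the pooled Foxp3-positive cells and from 252 to 132 in the rest, and Tcf7 from 106 to 39.0 against 116 to 119. DSS-treated mutant replicate 2 supplied 194 of the 506 cells. Regulatory cells whose Foxp3 transcript was not caught are counted with the rest.

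**Figure D3:**
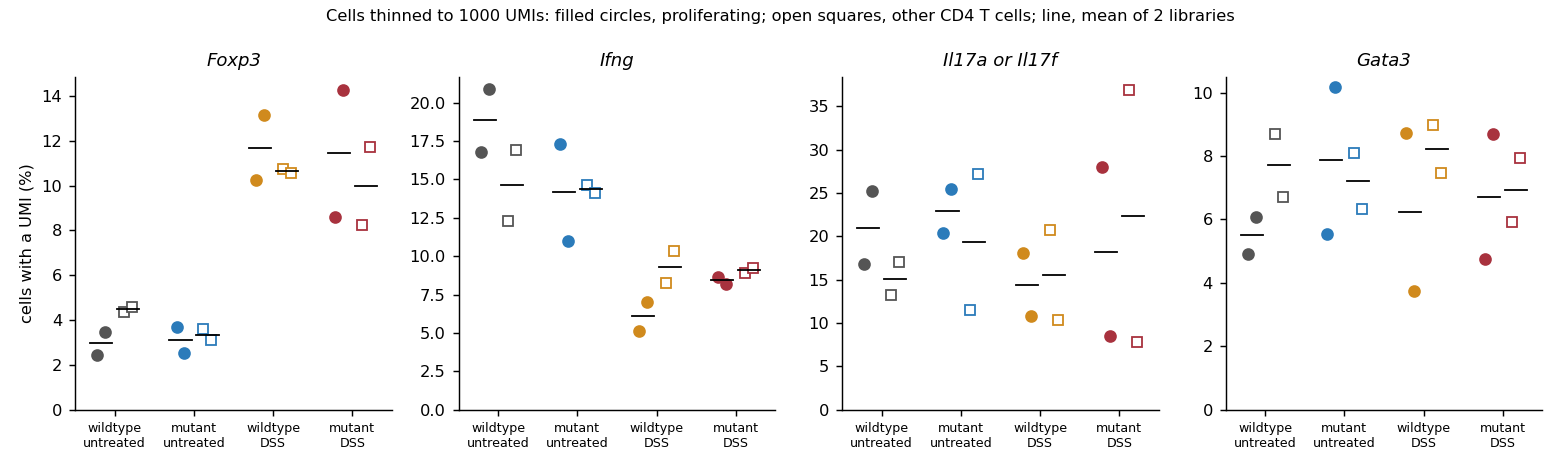
The y axes give the percentage of cells with a UMI of Foxp3, Il17a or Il17f, Ifng and Gata3 after thinning to 1000 UMIs per cell, by group. Filled circles are proliferating cells and open squares other CD4 T cells, 1 per library, with a line at the mean of 2. Foxp3 is between 2.46% and 3.70% untreated and between 8.62% and 14.3% after DSS in the proliferating cells, while Ifng goes the other way and Il17a or Il17f spreads within groups.

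Several genes of type 1 helper and cytotoxic function fell after DSS and 1 rose. Ifng, the cytokine interferon gamma, stood at 174, 254, 316 and 181 CPM untreated and 69.98, 101, 78.2 and 79.7 CPM after DSS, with every DSS library below every untreated one (log2 fold change -1.55, SE 0.176, adjusted p = 0.000179). It fell in wildtype (-1.39, adjusted p = 0.00945) and in mutant mice (-1.71, adjusted p = 0.00388). The averaged call held in all 15 alternatives, including the cells without a Foxp3 UMI (-0.91, adjusted p = 0.0217), and the mutant call was lost without those cells or without untreated mutant replicate 1. Tbx21, the T-bet factor that drives Ifng, stood at 43.5, 25.5, 20.5 and 32.9 CPM untreated and 9.02, 13.8, 8.23 and 18.3 CPM after DSS (log2 fold change -1.27, SE 0.278, adjusted p = 0.0101), a call lost without untreated mutant replicate 2 or without the Foxp3-positive cells. The chemokine Ccl5 stood at 537, 430.1, 367 and 204 CPM untreated and 159, 123, 174 and 224 CPM after DSS and fell (log2 fold change -1.18, SE 0.164, adjusted p = 0.000609), with an overlap between the second mutant replicates. Granzyme B went the other way: Gzmb stood at 146, 185, 131 and 87.1 CPM untreated and 283, 292, 281 and 248 CPM after DSS, higher in every DSS library (log2 fold change 0.98, SE 0.123, adjusted p = 0.000298), but with the Foxp3-positive cells left out its change was 0.27, adjusted p = 0.528.

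Of 13 type 1 and cytotoxic genes tested, 1 rose (Gzmb) and 6 fell (Ifng, Tbx21, Ccl5, Stat4, Il12rb2 and Nkg7), where 5.91% of all genes rose and 7.39% fell. The list median was -0.54, and 2 genes were higher and 3 lower in the other CD4 T cells. Without the Foxp3-positive cells the calls that remained were Ifng and Ccl5. Per cell at 1000 UMIs, Ifng was detected in 16.8%, 20.9%, 17.3% and 11.0% of the proliferating cells untreated and 5.12%, 7.04%, 8.62% and 8.21% after DSS, without overlap (16.5% ± 4.08 against 7.25% ± 1.57, SD, n = 4 each; difference -9.24 points; exact permutation p = 0.0286, adjusted p = 0.171). The fall was 12.8 points in wildtype and 5.73 in mutant mice. Other CD4 T cells went from 12.3% to 16.9% down to 8.26% to 10.3%, and fibroblasts from 1.51% to 2.52% down to 0.615% to 1.38%.

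Type 17 genes did not move together. Il17a, which encodes the cytokine interleukin 17A, ranged widely within treatments (255, 399.8, 535 and 795 CPM untreated and 393, 216, 724 and 118 CPM after DSS; log2 fold change -0.44, adjusted p = 0.476) and Il17f too (log2 fold change -1.35, adjusted p = 0.0672). Of 13 type 17 genes tested, 0 rose and 1 fell, near the share of all genes (5.91% higher and 7.39% lower). The gene that fell was Il21 (-1.47, adjusted p = 0.00948), a call lost without untreated wildtype replicate 2. The number that fell was 3 or 0 without the first or second untreated wildtype library, 2 or 1 (untreated mutant), 3 or 1 (wildtype after DSS) and 7 or 1 (mutant after DSS), and 1 rose without the last of these. An Il17a or Il17f UMI was detected at 1000 UMIs in 16.8%, 25.2%, 20.4% and 25.4% of the cells untreated and 18.1%, 10.8%, 28.0% and 8.45% after DSS (difference -5.62 points, exact permutation p = 0.343, adjusted p = 0.743). Each DSS group held 1 high and 1 low library. Fibroblasts showed 1.36% to 3.52% untreated and 2.15% to 11.1% after DSS, below the proliferating cells of the same library in all 8, and highest where those were highest (DSS-treated mutant replicate 1).

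Gata3, the factor of type 2 helper cells and of many colonic regulatory T cells, did not pass the test (log2 fold change -0.016, adjusted p = 0.951) and was detected in 3.76% to 8.73% of the thinned cells after DSS and 4.92% to 10.2% untreated. Areg, an epithelial growth factor made by tissue regulatory T cells, stood at 184, 261, 159 and 351 CPM untreated and 529.9, 434, 700.3 and 359 CPM after DSS and rose (log2 fold change 1.05, SE 0.226, adjusted p = 0.00926), a call lost with DESeq2 and without the Foxp3-positive cells. Of 4 type 2 and repair genes tested, Areg alone was called, and 2 were without untreated wildtype replicate 2. Since 5.91% of all genes were higher and 7.39% lower, 1 or 2 calls in lists of 4 or 8 genes say little about them. Of 8 follicular helper genes 1 rose (Izumo1r, also a regulatory gene) and 2 fell (Sh2d1a and Tox2). With 1 library left out 0 to 2 rose and 1 to 3 fell, the most without DSS-treated mutant replicate 1.

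Of the genes that brake the cell cycle, 7 of 14 fell and 1 rose, where 7.39% of all genes fell and 5.91% rose. Cdkn1a, which encodes the CDK inhibitor p21, stood at 212, 267, 216 and 248 CPM untreated and 111, 108, 123 and 86.9 CPM after DSS. All 4 DSS libraries were below all 4 untreated ones (log2 fold change -1.19, SE 0.123, adjusted p = 7.37e-05), in wildtype (-1.16, adjusted p = 0.00315) as in mutant mice (-1.21, adjusted p = 0.00388) and among cells without a Foxp3 UMI (-1.06, adjusted p = 0.00252). Gadd45g, of the stress-induced family that binds CDK1 and p21, stood at 49.6, 61.4, 51.6 and 47.1 CPM untreated and 21.3, 13.8, 25.4 and 15.9 CPM after DSS (log2 fold change -1.51, SE 0.180, adjusted p = 0.000242), and Gadd45b (-0.94, adjusted p = 0.00343) fell in every alternative too. Cdkn1b, the p27 inhibitor of resting T cells, did not pass the test (201 ± 11.0 against 201 ± 19.1 CPM, SD, n = 4; log2 fold change -0.032, adjusted p = 0.872).

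In this list of 14 CDK inhibitors and related brakes tested, 7 fell (Cdkn1a, Gadd45a, Gadd45b, Gadd45g, and the antiproliferative genes Btg1, Btg2 and Tob1) and 1 rose, with a list median of -0.50 against 0.018 over all genes, of which 7.39% fell and 5.91% rose. The count that fell lay between 5 and 7 when any library was left out and was 3 (Cdkn1a, Gadd45b and Gadd45g) without the Foxp3-positive cells. In the other CD4 T cells 5 of 15 fell and 1 rose. The gene that rose was Ccng2, which encodes the unconventional cyclin G2, a FOXO target: it stood at 26.6, 26.1, 20.5 and 24.7 CPM untreated and 47.3, 53.2, 56.2 and 52.5 CPM after DSS (log2 fold change 1.06, SE 0.140, adjusted p = 0.00045), with no overlap, and was called in every alternative.

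Genes that control the G1 to S transition, both drivers and the RB family brakes Rb1 and Rbl1, gave mixed and unsteady calls. Of 21 tested, 5 rose (Myc, Mybl2, E2f2, Cdk2 and Rbl1) and 2 fell (Ccnd2 and Rb1), with a median of 0.34, where 5.91% of all genes rose and 7.39% fell. Mybl2, which encodes B-MYB, stood at 18.7, 15.8, 14.4 and 21.2 CPM untreated and 26.0, 29.2, 28.8 and 26.5 CPM after DSS (log2 fold change 0.62, SE 0.181, adjusted p = 0.0356), and Myc, a transcription factor that promotes growth, at 10.3, 12.2, 6.83 and 14.1 CPM untreated and 25.6, 21.9, 21.9 and 15.2 CPM after DSS (log2 fold change 0.93, SE 0.244, adjusted p = 0.0232). For both genes the DSS libraries were above the untreated ones, at low levels. Ccnd2, the main D cyclin of T cells, changed by -0.35, adjusted p = 0.0278, and Ccnd3 by -0.34, adjusted p = 0.117. The Ccnd2 call was lost in 9 of 15 alternatives: DESeq2, 5 rule UMIs, without cells of other-lineage UMIs, and without each library except the second DSS-treated wildtype and the first DSS-treated mutant. DESeq2 called none of the 21 genes, and the count of those that rose was 2 or 0 without the first or second untreated wildtype library, 0 or 2 (untreated mutant), 1 or 1 (wildtype after DSS) and 6 or 1 (mutant after DSS).

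Few replication genes were called, in a share near that of all genes (13.3%). Of 18 licensing genes 3 rose (Mcm2 and Mcm5 of the helicase and its loader Cdt1, log2 fold changes 0.50, 0.36 and 0.46) and 0 fell, and of 32 synthesis genes 2 rose (Fen1, 0.56, and Rrm1, 0.34) and 1 fell (Atad2, -0.40). DESeq2 and the fit without Foxp3-positive cells called none of these 5. Licensing genes that rose numbered 1 or 0 without the first or second untreated wildtype library, 1 or 0 (untreated mutant), 2 or 0 (wildtype after DSS) and 3 or 1 (mutant after DSS). Synthesis genes that rose numbered 1 or 1, 0 or 1, 3 or 1 and 5 or 1 in the same order. Of 62 mitosis genes 10 rose and 3 fell, with a median of 0.22, where 5.91% of all genes were higher and 7.39% lower. Cenpa, the histone variant of centromeres, stood at 192, 144, 217 and 202 CPM untreated and 271, 251, 263 and 265 CPM after DSS (log2 fold change 0.45, SE 0.104, adjusted p = 0.0136), apart between treatments. The mitotic kinase Aurka stood at 7.86, 4.86, 17.5 and 5.88 CPM untreated and 19.1, 15.3, 19.9 and 19.7 CPM after DSS (log2 fold change 1.02, SE 0.276, adjusted p = 0.0272) and Plk1 at 10.3, 4.86, 13.7 and 2.35 CPM untreated and 17.7, 14.6, 23.3 and 18.0 CPM after DSS (log2 fold change 1.09, SE 0.326, adjusted p = 0.0408), the former overlapping in untreated mutant replicate 1, and Ccnb1, the mitotic cyclin, changed by 0.64, adjusted p = 0.0202. The 3 that fell were Tubb4b, a tubulin (-0.52, adjusted p = 0.0054), Ube2s and Pttg1.

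The number of mitosis genes that rose was 5 or 0 without the first or second untreated wildtype library, 4 or 0 (untreated mutant), 6 or 2 (wildtype after DSS) and 8 or 7 (mutant after DSS). It was 1 with DESeq2, 3 without cells of other-lineage UMIs and 0 without Foxp3-positive cells. Tubb4b, by contrast, fell in every alternative.

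The 5 genes of the rule, on whose sum the cells were chosen, are given without a test: their log2 fold changes after DSS were -0.076 for Mki67, -0.024 for Top2a, 0.12 for Birc5, 0.089 for Pclaf and 0.24 for Ube2c. Histone, chromatin and tubulin genes leaned lower, with 6 of 23 lower and 1 higher (Ran) and a median of -0.21, where 7.39% of all genes were lower and 5.91% higher. The linker histone gene Hist1h1c fell in every alternative (log2 fold change -0.63, SE 0.110, adjusted p = 0.00299), and Stmn1, the microtubule destabiliser of dividing cells, changed by -0.43, adjusted p = 0.012. The number that fell was 3 without untreated wildtype replicate 2 or DSS-treated wildtype replicate 2, and 2 without untreated mutant replicate 2.

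**Figure D4:**
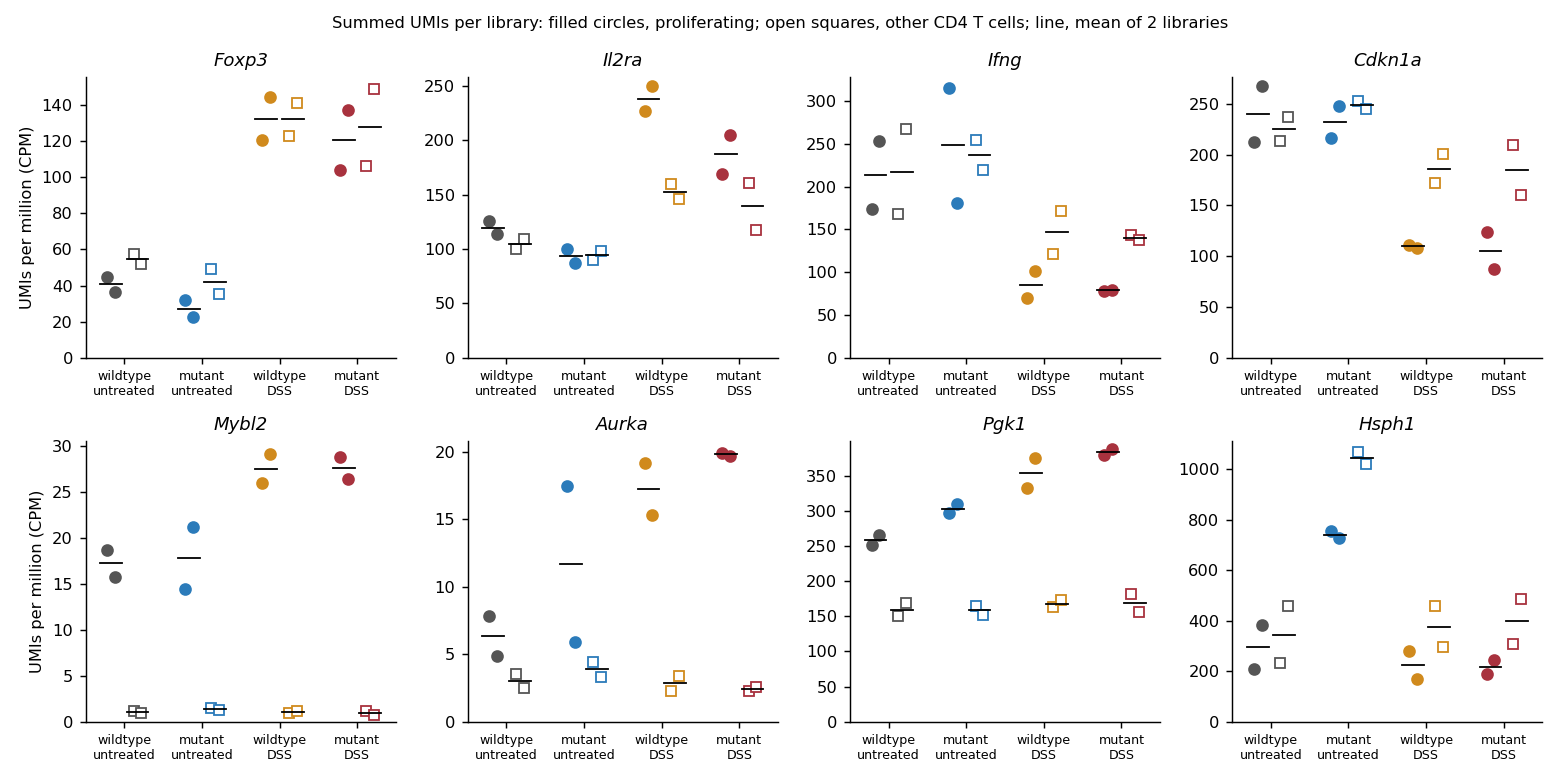
The y axes give summed levels (CPM, from 0) of Foxp3, Il2ra, Ifng, Cdkn1a, Mybl2, Aurka, Pgk1 and Hsph1 in each library, by group. Filled circles are proliferating cells and open squares other CD4 T cells, with a line at the mean of 2. Cdkn1a and Ifng are lower and Foxp3 and Il2ra higher in every DSS library of the proliferating cells, and Hsph1 is highest in both untreated mutant libraries.

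Genes of glycolysis rose in part. Pgk1, phosphoglycerate kinase, stood at 251, 265, 296 and 309 CPM untreated and 333, 375, 380.01 and 387 CPM after DSS, with all DSS libraries above all untreated ones (log2 fold change 0.36, SE 0.0920, adjusted p = 0.0211). Pkm, pyruvate kinase, rose (log2 fold change 0.51, SE 0.0920, adjusted p = 0.0035), and Ldha, lactate dehydrogenase, too (0.32, adjusted p = 0.0308). Of 14 glycolysis genes 1 was higher and 1 lower in the other CD4 T cells. In the proliferating cells 6 rose (Pgk1, Pkm, Ldha, Pgam1, Slc2a1 and Slc16a3) and 1 fell (Pfkp), with a median of 0.30, where 5.91% of all genes rose and 7.39% fell. The number that rose was 1 without either untreated wildtype library, 2 or 1 without the first or second untreated mutant library, 3 or 1 (wildtype after DSS), 4 or 5 (mutant after DSS), and 0 without the Foxp3-positive cells.

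Of 17 oxidative phosphorylation genes 1 rose and 1 fell, a share near that of all genes (13.3% called), with a median of 0.029. Sdhd, an anchor subunit of succinate dehydrogenase, rose (23.0, 26.1, 23.5 and 35.3 CPM untreated and 54.8, 64.9, 59.0 and 59.3 CPM after DSS; log2 fold change 1.12, SE 0.151, adjusted p = 0.00051) with no overlap, and cytochrome c (Cycs) fell (-0.48, adjusted p = 0.00774), both in every alternative, and the other 15 of 17 genes were not called. Of 14 ribosome biogenesis genes 1 fell, Nop56 of the nucleolar methylation complex (log2 fold change -0.80, SE 0.110, adjusted p = 0.000605), against 8 lower in the other CD4 T cells. The share of all genes that were lower was 7.39% in the proliferating cells and 9.14% in the other CD4 T cells.

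Klf2, the factor that holds T cells quiescent and lets them leave tissue, stood at 154, 170.1, 157 and 139 CPM untreated and 78.6, 61.9, 80.3 and 80.6 CPM after DSS. It was lower in every DSS library (log2 fold change -1.07, SE 0.109, adjusted p = 6.75e-05), in wildtype (-1.22, adjusted p = 0.00134) and mutant mice (-0.92, adjusted p = 0.00621) and without the Foxp3-positive cells (-1.10, adjusted p = 0.00102). Of 11 quiescence and egress genes 3 fell (Klf2, Foxo1 and Tcf7) and 0 rose, with a median of -0.34, and 5 fell without DSS-treated mutant replicate 1. Over all genes 7.39% fell and 5.91% rose. Tcf7, the factor of stem-like T cells, changed by -0.53, adjusted p = 0.0159, but by 0.047, adjusted p = 0.862 without the Foxp3-positive cells. Tcf7 was not called without untreated wildtype replicate 2, untreated mutant replicate 1 or 2, DSS-treated wildtype replicate 2 or DSS-treated mutant replicate 2, and Foxo1 not without untreated wildtype replicate 2 or untreated mutant replicate 1.

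Heat-shock and immediate early genes, which respond to tissue dissociation as well as to signals in the animal, were lower after DSS. Of 12 heat-shock genes 8 fell (median -0.75), and of 10 immediate early genes 8 fell (median -0.62), against 5 and 6 lower in the other CD4 T cells. Among all genes 7.39% fell in the proliferating cells and 9.14% in the other CD4 T cells. Hsph1 stood at 211, 385, 754 and 728 CPM untreated and 281, 169.8, 188 and 246 CPM after DSS (log2 fold change -1.11, SE 0.183, adjusted p = 0.00197), and both untreated mutant libraries were far above the rest. Within wildtype mice Hsph1 did not pass (-0.42, adjusted p = 0.389) and none of the 12 heat-shock genes was called. Atf3, a stress-induced repressor, stood at 42.9, 71.7, 90.4 and 74.1 CPM untreated and 22.0, 9.47, 32.2 and 18.7 CPM after DSS and fell in both genotypes (-1.77, adjusted p = 0.0131 in wildtype, -1.85, adjusted p = 0.00665 in mutant), and 6 immediate early genes fell within wildtype mice. The wildtype call of Atf3 was lost without the Foxp3-positive cells, untreated wildtype replicate 2 or DSS-treated wildtype replicate 2. Its mutant call was lost without those cells, either untreated mutant library or DSS-treated mutant replicate 2. The part of tissue handling in the genes that fell with the heat-shock and immediate early genes was not tested.

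Further genes named by size of change, in every DSS library above every untreated one, were Laptm4b, a lysosomal membrane protein (7.25, 1.82, 4.56 and 1.18 CPM untreated and 23.1, 32.1, 18.5 and 19.7 CPM after DSS; log2 fold change 2.52, SE 0.349, adjusted p = 0.000609), Myo10, an unconventional myosin (6.65, 3.04, 9.11 and 4.71 CPM untreated and 25.3, 18.9, 23.3 and 19.4 CPM after DSS; log2 fold change 1.82, SE 0.274, adjusted p = 0.00108), and Lgmn, the lysosomal protease legumain (22.4, 19.4, 19.7 and 20.002 CPM untreated and 40.8, 103, 56.9 and 51.5 CPM after DSS; log2 fold change 1.53, SE 0.264, adjusted p = 0.00272). Saa3, an acute-phase protein, had 0 to 5 UMIs per untreated library and 8 to 168 after DSS (3.51, adjusted p = 0.00514). Among genes that fell, Cxcl10, a chemokine induced by interferon gamma, stood at 171, 95.4, 146 and 168 CPM untreated and 45.5, 29.2, 84.4 and 33.0 CPM after DSS (log2 fold change -1.70, SE 0.247, adjusted p = 0.000876). Ccl17, a chemokine of dendritic cells, stood at 38.1, 49.2, 118 and 9.41 CPM untreated and 2.53, 0, 0.686 and 1.41 CPM after DSS (log2 fold change -5.24, SE 0.653, adjusted p = 0.000292), and without cells of other-lineage UMIs it did not pass the filter on low counts and was not tested. It had the largest fall of the 12 genes named by size. Those 12 also held Cxcl9 (-2.42), Pkib (-2.15), Cbfa2t3 (-2.02), Dnase1l3 (-1.96), H2-DMb1 (-1.71), Napsa (-1.68) and Wdfy4 (-1.61). H2-DMb1 and Wdfy4 lost the call in 4 and 8 of 14 alternatives. Whether cells of another lineage supplied these transcripts was not tested. Keratins led the list of rises by size: Krt14 had 0 UMIs in all untreated libraries and 324, 144, 660 and 824 UMIs after DSS, and Krt5 had 0 and 942 in all. Each DSS library held 2 to 4 cells above 2 epithelial UMIs, no fold is given against 0, and without cells of other-lineage UMIs, which are defined by such transcripts, they were not tested. Without such cells 988 genes were called, 862 of them among the 1181.

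**Figure D5:**
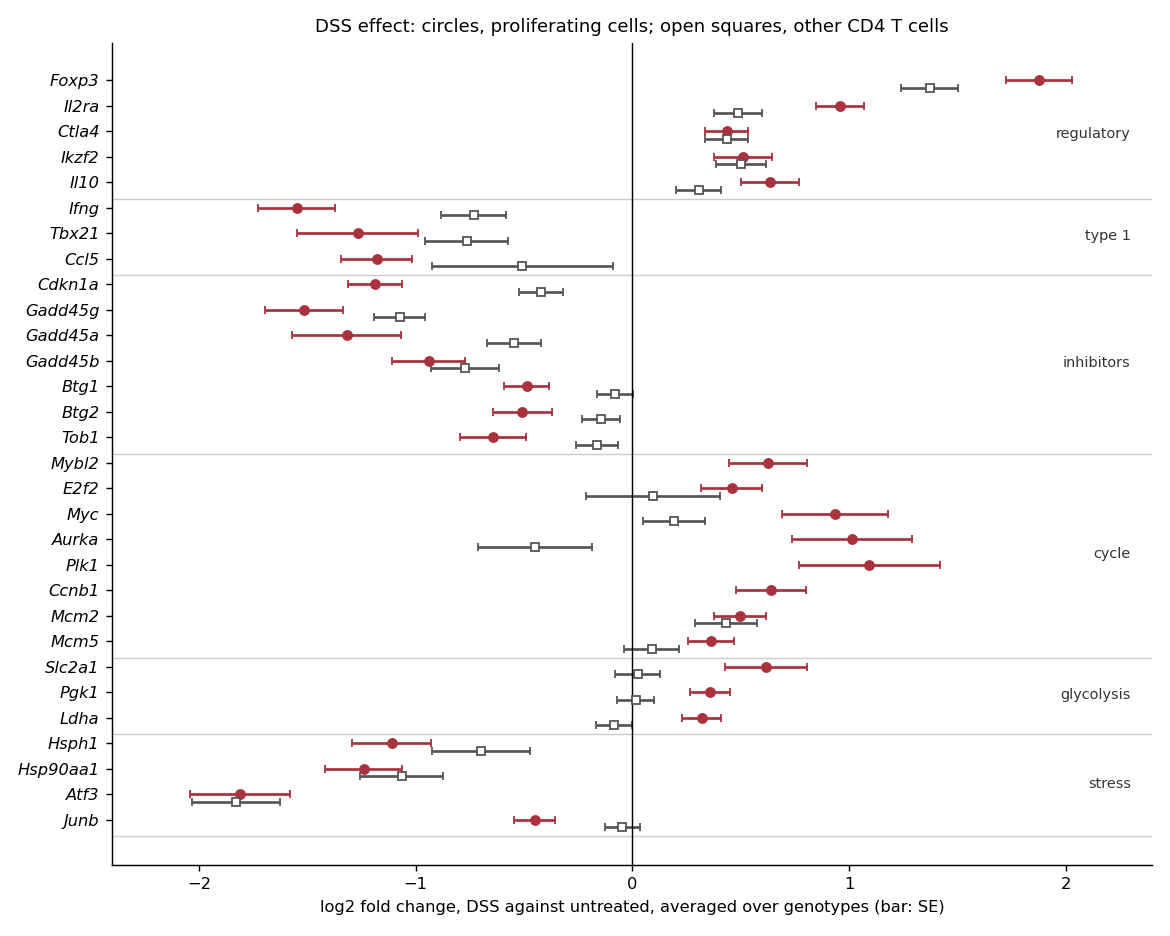
The x axis gives the log2 fold change of DSS against untreated averaged over genotypes, with the SE as a bar, for genes of 6 groups. Filled circles are proliferating cells and open squares other CD4 T cells. Ifng and Cdkn1a lie farther below 0 in the proliferating cells (-1.55 and -1.19) than in the others (-0.73 and -0.42), and Foxp3 lies above 0 in both.

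Whether DSS acted differently on proliferating than on other CD4 T cells was tested as an interaction on 16 sums with the library as a block. Of 11493 genes, 607 passed (5.28%), 239 (2.08%) relatively higher and 368 (3.2%) relatively lower after DSS in the proliferating cells, with a median over all genes of -0.0134. The share of relatively higher calls moved with the scaling, from 39.4% to 53.8% with median-ratio factors (612 genes) and 52.9% with DESeq2 (391 genes), and to 54.9% without untreated mutant replicate 1 (481 genes), so the balance of directions is not read here. Without untreated wildtype replicate 1 or 2 there were 388 and 312 genes, without DSS-treated mutant replicate 2 there were 379, and without cells of other-lineage UMIs 367.

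Several genes described above responded by different amounts in the 2 classes. Cdkn1a fell by more in the proliferating cells (log2 difference of DSS effects -0.77, adjusted p = 2.26e-05): its change in the other CD4 T cells was -0.42, adjusted p = 0.0226. Ifng did too (-0.81, adjusted p = 6.69e-05; other CD4 T cells -0.73, adjusted p = 0.0137), and Klf2 (-0.56, adjusted p = 0.00286; other cells -0.52, adjusted p = 0.00948). Gzmb rose by more in the proliferating cells (difference 0.86, adjusted p = 2.26e-05; other cells 0.091, adjusted p = 0.621). Foxp3 rose by more (0.47, adjusted p = 0.0185; other cells 1.37, adjusted p = 0.0014), a difference lost without untreated wildtype replicate 2 or without cells of other-lineage UMIs. For Il2ra (0.46, adjusted p = 0.0578) and Tbx21 (-0.55, adjusted p = 0.267) the difference did not pass. The class comparison was not run without the cells that held a Foxp3 UMI. Unthinned, their mean share went from 13.5% to 41.6% in the proliferating cells and from 9.14% to 20.6% in the other CD4 T cells. The part of these cells in the differences was not tested.

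By list, the CDK inhibitors gave 4 relatively lower genes of 15 (Cdkn1a, Gadd45a, Btg1 and Tob1) and 0 higher, and quiescence and egress 3 of 11 (Klf2, Tcf7 and Il7r; 2 to 4 with 1 library left out). Tcf7 was not called there with DESeq2, without cells of other-lineage UMIs, without untreated wildtype replicate 1 or 2, DSS-treated wildtype replicate 2 or DSS-treated mutant replicate 2. Immediate early genes moved the same way, with 5 of 10 relatively lower (Jun, Fosb, Zfp36, Junb and Dusp1; median -0.36) and 0 higher, and heat-shock genes with 3 of 12 lower (Dnaja1, Hsph1 and Dnajb1) and 1 higher. Their part in the relative fall of Cdkn1a and Klf2 was not tested. Some metabolic genes were relatively higher: 6 of 17 oxidative phosphorylation genes (Cox7b, Ndufa4, Sdhd, Uqcr10, Atp5g1 and Ndufb9) and 0 lower, 6 of 14 ribosome biogenesis genes (Ncl, Npm1, Fbl, Dkc1, Nhp2 and Eif5a), and 4 of 14 glycolysis genes (Pgk1, Eno1, Ldha and Pkm) against 1 lower. For all lists in this comparison the share over all genes was 2.08% relatively higher and 3.2% relatively lower. Ncl, nucleolin, stood at 1279, 1376, 1331 and 1202 CPM untreated and 1268, 1264, 1172 and 1277 CPM after DSS in the proliferating cells (-0.096, adjusted p = 0.498) and changed by -0.36, adjusted p = 0.0188 in the other CD4 T cells (difference 0.24, adjusted p = 0.0315), and Ldha differed by 0.40, adjusted p = 0.00237. With 1 library left out, 4 to 7 ribosome biogenesis genes were relatively higher. Oxidative phosphorylation genes numbered 1 or 2 without the first or second untreated wildtype library, 7 or 6 (untreated mutant), 5 or 2 (wildtype after DSS) and 5 or 1 (mutant after DSS), and 1 without cells of other-lineage UMIs. Glycolysis genes numbered 1 or 1, 6 or 3, 5 or 2 and 4 or 1 in the same order. The relatively lower CDK inhibitors numbered 3 or 2, 3 or 3, 2 or 3 and 6 or 2. Of 13 type 17 genes 5 were relatively lower, among them Il17a (-0.65, adjusted p = 0.0158), a call lost with DESeq2, and none of the 5 without untreated mutant replicate 1, 2 without untreated wildtype replicate 2 and 3 without untreated wildtype replicate 1 or DSS-treated wildtype replicate 2, and Ccl20, a chemokine that was relatively higher, was not called without cells of other-lineage UMIs.

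The mutant and wildtype proliferating cells differed in few genes. In untreated mice 0 of 8881 genes passed in edgeR (0%) and 1 in DESeq2, while 522 had an edgeR p below 0.05 before adjustment. After DSS 3 genes passed in edgeR (0.0338%) and 5 in DESeq2, with 332 below 0.05 before adjustment. For the difference of the DSS effects between genotypes these numbers were 0 (0%), 1 and 520. The 3 genes after DSS were Krt17, the metallothionein Mt2 (62.0 ± 12.2 against 10.7 ± 9.56 CPM, SD, n = 2 each) and Gsto1, a glutathione transferase (95.9 ± 27.0 against 36.8 ± 5.63 CPM, SD, n = 2 each). Krt17 is a keratin, held 324 and 544 UMIs in the mutant and 67 and 18 in the wildtype DSS libraries, and moved with the epithelial transcripts of those libraries. Without cells of other-lineage UMIs Gsto1 was not called, and Krt17 and Mt2 were not among the genes tested. Leaving out 1 library gave 1 or 2 genes, except 49 without DSS-treated mutant replicate 1 and 17 without replicate 2.

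Type 17 genes did not pass in either comparison of the genotypes. Il17a differed by a log2 of 1.02, adjusted p = 0.867 untreated and 0.39, adjusted p = 1 after DSS. Cells with an Il17a or Il17f UMI were 20.6% ± 8.68 of the mutant and 17.7% ± 5.92 of the wildtype proliferating cells (SD, n = 4 each, 1000 UMIs per cell; difference 2.84 points, exact permutation p = 0.543, adjusted p = 0.888). Those with a Foxp3 UMI were 7.28% ± 5.34 and 7.33% ± 5.19 (difference -0.0515, exact permutation p = 1), and those with an Ifng UMI 11.3% ± 4.19 and 12.5% ± 7.59 (difference -1.18, p = 0.857), where the SDs span both treatments. Hsph1 was higher in the untreated mutant libraries without passing (1.32, adjusted p = 0.285). No gene of the lists was called in either genotype comparison.

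The response to DSS was read in each genotype by the same genes. Cdkn1a, Ifng, Klf2, Foxp3, Tnfrsf9, Il2ra, Gzmb, Gadd45g, Ccng2, Sdhd and Nop56 passed in both, each with the same sign. Ccl5 passed in wildtype (-1.80, adjusted p = 0.0015) and not in mutant mice (-0.56, adjusted p = 0.206), as did Stat4, Il12rb2, Nkg7 and Tbx21. The difference itself was tested and did not pass for any of them (Ccl5 1.24, adjusted p = 0.757; Il12rb2 1.49, adjusted p = 0.757), so a genotype effect on the type 1 genes is not shown. Hsph1 passed in mutant mice alone (-1.80, adjusted p = 0.00388), with the 2 high untreated mutant libraries on one side, and its difference did not pass either (-1.37, adjusted p = 0.757).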

How the data were processed

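Single cells were measured in 8 libraries of 4 groups with 2 biological replicates each, as the sample titles and the series design give them. The authors deposited raw UMI counts per gene and barcode and a list of the cells they kept. Cell Ranger 3.1.0, Seurat 4.0.1 and the build mm10 are named per the submitters' processing notes, without their roles, and how cells were chosen is not given in the sources used here. Of 30934 gene identifiers matched to a reference, 98.5% had the symbol of their row, and 36 rows repeating a symbol were left as separate rows.

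Members and gene lists were chosen with earlier results of these data known. The list of genes called for DSS in all CD4 T cells came from that earlier account (10 of its 11 tested genes were called in the averaged DSS contrast here) and supports nothing. Counts were summed over the members of each library, which gave 850127 to 4269695 UMIs, filtered by expression, scaled by TMM and tested with edgeR 4.0.16 (R 4.3.3, limma 3.58.1) with all 8 libraries in 1 fit, and with DESeq2 1.42.0 as an alternative. The class comparison used 16 sums with the library as a block. Shares were tested by exact permutation (scipy 1.17.1, Python 3.11.15) and adjusted over 18 tests. Ratios to the other CD4 T cells used CPM with a pseudocount of 1. Named genes were those called with no overlap between groups, up to 12 per direction by size at 20 CPM or more, list members that passed, and 16 T cell genes fixed by name. No doublet caller was run. A gene and the results that need it are not reported here. The alternative without cells of other-lineage UMIs kept cells with at least 5 T cell receptor UMIs and at most 2 epithelial, 4 neutrophil, 19 plasma, 4 myeloid and 4 B cell UMIs. It and the alternative without cells with a Foxp3 UMI were chosen after the data were seen. Scripts were tested on simulated data.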

Additional observations from a re-analysis of the deposited data

Results flagged for a closer look

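The response to DSS differed between proliferating and other CD4 T cells in 607 genes by the test of the difference itself, edgeR's quasi-likelihood test on the class by treatment term. By size, among called genes at 20 CPM or more, the list began with Krt17, S100a16 and Hspb1 (log2 differences 6.42, 4.44 and 2.73) and, on the lower side, with Ccl17, Ccl22 and Mpeg1 (-2.87, -1.71 and -1.63). Without cells of other-lineage UMIs Krt17, Hspb1 and Mpeg1 were not called, and S100a16, Ccl17 and Ccl22 were not among the genes tested. Of the 12 alternatives that gave a value, the Ccl17 call was lost in 9, median-ratio factors among them, and the Ccl22 call in 6. Chosen from the same list after its values were seen, Cxcl10 (-1.33) and the tropomyosin Tpm1 (1.08) were called in all 14 alternatives that gave a value. The replication fork gene Timeless (1.07) was not called without untreated wildtype replicate 2, untreated mutant replicate 1 or DSS-treated mutant replicate 2.

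Outside the deposited cell list, 1498 barcodes passed the same limits on T cell, other-lineage and cycle genes. They were not used in any comparison, and 376 of them held a Cd4 UMI. By library they numbered 252, 213, 113 and 105 untreated and 189, 217, 313 and 96 after DSS.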

How the results depend on the processing

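No paired analysis was possible because the titles number animals and give the groups no shared replicate numbers. Median-ratio factors in place of TMM changed no count of calls by over 1.5 times. For DSS averaged over genotypes (1181 genes) DESeq2 called 505, the fit without Foxp3-positive cells 343, and leaving out each library 507 to 1394. With no filter on low counts there were 1616. For DSS in wildtype (337) the counts were 154 with DESeq2, 707 with no filter, 21 without Foxp3-positive cells and 45 to 523 leaving out each library. For DSS in mutant (240) they were 139, 746, 91 and 23 to 515. For mutant against wildtype untreated (0) they were 1 with DESeq2, 62 with no filter, 3 without cells of other-lineage UMIs, 12 with only the 4 libraries compared and 0 to 3 leaving out each library. For mutant against wildtype after DSS (3) they were 5, 87, 0, 1 and 1 to 49, with 9 at 5 rule UMIs and 2 without Foxp3-positive cells. For the difference of DSS effects (0) they were 1 with DESeq2, 66 with no filter, 1 at 5 rule UMIs and 0 to 8 leaving out each library. For the class comparison (607) they were 391 with DESeq2, 367 without cells of other-lineage UMIs and 312 to 583 leaving out each library. The share of higher calls for DSS averaged over genotypes was 44.5% and 30.5% with DESeq2.

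Of the shares, DSS minus untreated among CD4 T cells ranged from -0.567 to 1.53 points leaving out each library, and mutant minus wildtype was -1.01 and -1.22 with thinned cells. Cells leaning to S differed by 1.91 to 3.32 points for DSS and -1.49 to 0.377 for genotype. The genotype difference in Foxp3-positive members was 0.568 without cells of other-lineage UMIs and -2.38 to 1.89 leaving out each library, and that in Ifng 0.507 at 2000 UMIs and -3.62 to 1.63. Il17 detection after DSS changed by 0.408 in the members below the median depth. Gata3 changed by 1.77 unthinned, 0.186 at 2000 UMIs, 2.90 below the median depth and -0.952 to 0.962 leaving out each library. The DSS difference in proliferation of cells without a Foxp3 UMI was -0.884 to 0.473 and without an Ifng UMI -0.191 to 0.862. Tcf7 changed by 0.047 without Foxp3-positive cells. Without cells of other-lineage UMIs the class difference was -0.31 for Hspb1, -0.90 for Id1, -2.80 for Ly6d, -0.29 for Cxcl5, -0.76 for Anxa1, -0.23 for Perp and 0.0070 for Ptgs2. The causes were not tested. Depth limits low genes such as Plk1, with 2 to 77 UMIs per library.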
